A study of Mus musculus with 5 samples.

Results

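Trichostatin A (TSA) was set against its vehicle in Sca1+ interstitial cells of dystrophic mouse muscle, over the 4 arrays whose labels name those cells, of 5 arrays in all. All 4 came from mdx mice on the C57BL/6 strain, whose mutation in the dystrophin gene makes them a model of Duchenne muscular dystrophy. The animals had been injected intraperitoneally for 45 days with TSA at 0.6 mg per kg or with vehicle. Cells were sorted from muscle as positive for CD34, α7-integrin and Sca1, with 2 arrays for vehicle and 2 for TSA. The remaining array, of Sca1-negative muscle stem cells (MuSC) from vehicle-treated mdx mice, entered the model only as a group of its own and is quoted as a reference level with no spread of its own. Every mouse was mutant and treated, so neither a healthy nor an untreated level is part of the comparison, and the labels give neither the age nor the sex of the animals nor say how many mice a sample held. Nothing in them tells whether the replicates are different animals, so the p-values cover the spread of these arrays alone, and that spread may be technical.

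Histone deacetylases remove acetyl groups from histones and other proteins, and TSA blocks the zinc-dependent members of that enzyme family. In skeletal muscle, Sca1+ interstitial cells that carry PDGF receptor alpha are the fibroadipogenic progenitors, which lay down matrix and fat and release factors that act on the satellite cells, the stem cells of the fibre. In mdx muscle, fibres degenerate and regenerate repeatedly, and the study's title concerns a myogenic activity of these interstitial cells under deacetylase inhibition.

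All levels below are log2 of an array's processed signal minus the 75th percentile of the same array. A difference is TSA minus vehicle on that scale, with the standard error (SE) of a limma model and 2 arrays per group, and a call means a limma adjusted p under 0.05. Slide 1 carried the first replicate of both groups and slide 2 the second. That percentile stood at 235 and 165 with vehicle and at 326 and 452 with TSA. Relative to the median of 10 spike-in probes it was 0.126 and 0.0436 with vehicle and 0.187 and 0.179 with TSA. Each array had 58.5% to 66.9% of its spots well above background and none saturated. So the TSA arrays were brighter before scaling, and the part of that in the results was not tested. Precision is limited by the small number of arrays.

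Among the features called, the change was mainly a rise. Of 26091 genes and unnamed features tested, 708 (2.71%) rose with TSA and 70 (0.268%) fell, 2.98% in all. The rises were also larger: 429 of them reached 2 log2 units and 100 reached 4, while 3 of the falls reached 2 and none reached 3. The median over all features tested was -0.13, and the smallest called difference was 1.05. Differences measured on slide 1 and on slide 2 had the same sign for 76.1% of features. On both slides, 3.98% of features were at least 1 log2 unit higher and 0.882% at least 1 lower. Taken singly the slides differed. Slide 1 had 1456 features at least 1 higher and 697 at least 1 lower, and slide 2 had 1730 higher and 2386 lower. On slide 2, then, falls of that size outnumbered rises. With either TSA array left out, no feature was called in either direction, and 4913 and 3099 had an unadjusted p under 0.05 against 6048 with all arrays. Without either vehicle array, 319 and 256 features rose and 2 and 2 fell. With normexp background correction in place of the processed signal the split turned, to 1252 higher and 5868 lower, and the median of all features moved from -0.13 to -0.25. Beyond 1 log2 unit that setting gave 463 higher and 101 lower. At the main shares of 2.71% higher and 0.268% lower, a gene list of the size used below would give few calls or none. A list whose count lies near those shares is therefore no result about its members. Of all 26091 features, 6048 had an unadjusted p under 0.05, in either direction. Counts of list members at that cut, given below, are to be read against that number.

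**Figure D1:**
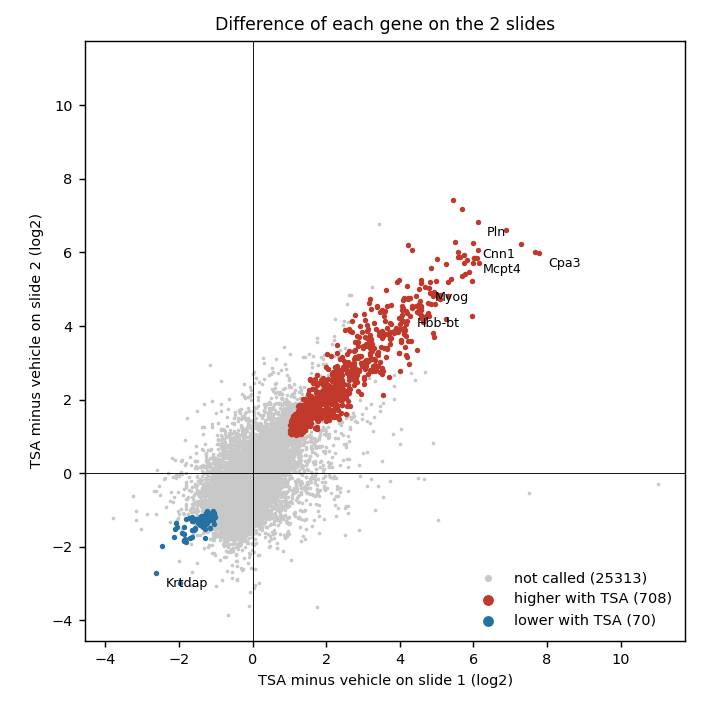
Difference between TSA and vehicle (log2) on slide 1 (x axis) and slide 2 (y axis) for each of the 26091 features tested, with the 708 called higher in red, the 70 called lower in blue and the rest in grey. The red points reach beyond 6 on both axes (Pln), whereas Krtdap, the leftmost blue point, lies at -2.61 and -2.71.

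Among the features tested, dim ones rose more often than bright ones. Ranked by mean level, 4.43% of the dimmest 20% of features rose and 0.690% of the brightest 20%. A feature was tested only if 1 group or more had it well above background on all its arrays. Dim features that entered were thus partly chosen for being high in 1 group, and the filter's part in this contrast was not tested. The same limit holds for the shares of the gene lists below. With no filter on dim probes, 280 features rose and 3 fell. Of features well above background, 857 were so on both TSA arrays and neither vehicle array, 229 of which rose, against 22 with the opposite pattern, of which 5 fell. The lowest level that counted as well above background was itself lower with TSA, at -5.51 and -5.62 against -4.62 and -4.42 with vehicle, and its part in these counts was not tested. Counted by the software's looser call, signal significantly above background, the numbers were 146 and 0. Probes to stretches between genes seldom passed, 12 higher and 6 lower of 3546, with a median of -0.43.

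The sorting gate was the first check of the labels. Ly6a, the gene of the Sca1 antigen, read 6.46 and 6.59 with vehicle, 5.89 and 5.71 with TSA, and 1.46 on the MuSC array. Cd34, a surface sialomucin, read 7.67 and 7.65 with vehicle and 6.85 and 7.05 with TSA. Neither difference was called, at -0.73 ± 0.16 for Ly6a (limma adjusted p = 0.115) and -0.72 ± 0.16 for Cd34 (limma adjusted p = 0.114). Itga7, which encodes the laminin-binding α7-integrin of the gate, rose from 1.35 and 1.09 to 4.53 and 4.59, a difference of 3.34 ± 0.17 (limma adjusted p = 0.00537), and read 7.02 in MuSC. Of the 3 gate genes, then, Itga7 was the called member, and its TSA level lay between the vehicle and MuSC levels.

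Genes of interstitial identity had mostly negative differences and 2 calls. Of 34 tested genes of fibroadipogenic progenitors, 31 had a negative difference and the median was -0.68, against -0.13 over all features, but 1 was called lower and 1 higher. At an unadjusted p under 0.05, 20 were lower and 2 higher, and with slide as a block 3 were called lower. The summed linear signal of the list was 4676 and 6014 with vehicle and 2472 and 2848 with TSA. Pdgfra, the receptor that defines these cells, read 4.83 and 4.87 with vehicle and 3.88 and 4.22 with TSA, and -1.65 in MuSC. Pi16, a secreted protein of a stromal subset, was the member that fell, from 7.44 and 7.11 to 5.95 and 5.87 (-1.37 ± 0.18, limma adjusted p = 0.0463). Dpp4, a peptidase of the same subset, read 0.40 and 0.35 against -1.13 and -0.69 and missed the threshold at -1.29 (limma adjusted p = 0.0682). Bst1, an ectoenzyme, went the other way, from -3.86 and -4.21 to -1.08 and -1.06 (2.96 ± 0.19, limma adjusted p = 0.00787). In a bulk sample, fewer cells of a type and less RNA per cell cannot be told apart.

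Some of the myogenic regulators rose. Of 29 tested transcription factors of muscle, 7 (24.1%) rose and none fell, with a median of 0.23, and 12 were higher and 2 lower at an unadjusted p under 0.05. Myog, which drives terminal differentiation, read -3.58 and -3.54 with vehicle and 1.12 and 1.53 with TSA (4.89 ± 0.20, limma adjusted p = 0.00424), and 4.80 in MuSC. Its probe lies on chromosome 1 in mm9, in a run of called neighbours described at the end. Vgll2, a cofactor of the TEAD factors enriched in skeletal muscle, was above background on neither vehicle array and on both TSA arrays, at -4.70 and -4.45 against 0.39 and 0.29, at least 29.1-fold higher (limma adjusted p = 0.00363). Myod1, the determination factor, read -4.49 and -3.54 against -1.14 and -0.70 (3.09 ± 0.39, limma adjusted p = 0.0392). Pax7, which marks satellite cells, read -3.77 and -4.51 against -0.99 and -1.16 (3.07 ± 0.29, limma adjusted p = 0.0211) and was above background on 1 of the 2 vehicle arrays. In all 4 genes the groups stood apart by over 2 log2 units, but they are named as calls, so that gap adds nothing to the calls. The MuSC array was higher than both TSA arrays in all 4, and in 523 of the 708 features called higher.

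The other called regulators were Hmga2, a chromatin protein of proliferating myoblasts (2.11), Prdm16, a regulator of brown fat and muscle fate (1.72), and Myf6, a late myogenic factor that read -5.97 and -5.82 against -3.96 and -4.34 and was at least 1.29-fold higher (limma adjusted p = 0.0323). Other members of the list did not pass, among them Mef2c (0.75), Mef2d (0.54), Eya2 (-0.24) and Pax3 (-0.51). Myf6 had a negative difference under normexp (-0.42).

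Surface and structural genes of satellite cells were also among the rises. Of 24 tested, 8 (33.3%) rose and none fell, with a median of 0.52. The gene lists share members, so their counts are not independent. Rgs5 and Notch3, among these 8, also count in the pericyte list, and Des in the smooth muscle list. Chrdl2, which binds and blocks bone morphogenetic proteins outside the cell, went from -6.70 and -6.52 to -0.61 and -0.68, at least 14.7-fold higher (limma adjusted p = 0.00358). Calcr, a calcitonin receptor that satellite cells carry at rest, read -6.78 and -6.55 against -2.21 and -2.11, at least 5.15-fold higher (limma adjusted p = 0.00391). Cdh15, the muscle cadherin, rose from -3.23 and -2.75 to 1.39 and 1.35, and Cd82, a tetraspanin, from 3.27 and 2.89 to 4.83 and 4.81. The genes Met (-0.49), Vcam1 (0.22) and Sdc4 (0.18) were among the 16 that did not pass.

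Of 22 genes of fusion and membrane repair, 2 rose. Mymx, which encodes the microprotein myomixer, went from -2.92 and -3.01 to 1.13 and 1.17 (4.11 ± 0.15, limma adjusted p = 0.00363), and Cdh15 was the other. Mymk, the myomaker that fuses membranes together with it, had a difference of 0.10 and did not pass.

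Many genes of the contractile apparatus rose. Of the tested genes, 10 of 22 of the thick filament, 16 of 38 of the thin filament and Z disc, and 12 of 26 of excitation-contraction coupling rose and none fell, with medians of 2.21, 1.49 and 1.35. With normexp those medians were 0.92, 0.11 and 0.24, against -0.25 over all features, and 13, 15 and 9 members rose. Of the 22, 38 and 26 genes, 5, 5 and 8 were well above background on both TSA arrays and neither vehicle array. Such a gene can enter the tested set through its TSA level, and the filter's part in these shares was not tested. Summed over the thin filament list, the linear signal (in units of the array's 75th percentile) went from 146 and 137 to 248 and 253.

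Among motors, Myom1, which crosslinks myosin at the M band, was at least 31.0-fold higher, from -5.11 and -5.54 to 0.54 and 0.33 (limma adjusted p = 0.00399). The fast and perinatal myosin heavy chains rose side by side. Myh4 read -2.43 and -2.97 with vehicle and 0.54 and 0.87 with TSA, against 0.68 in MuSC, and Myh8 read -1.98 and -1.94 against 1.28 and 1.47. Myh1 rose by 3.63 and Myh2 was at least 10.3-fold higher. Another probe of Myh8 had a difference of -0.73, so its probes disagreed, and the heavy chain genes are near-identical enough that a probe may carry a neighbour's signal. Myh3, the embryonic chain, had a difference of 5.11 ± 1.16 but missed the threshold (limma adjusted p = 0.118) with vehicle arrays at -3.21 and -6.60. Myh7 (-0.40), the slow chain, did not pass.

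Among actins, troponins and their companions, Actc1, the cardiac actin that is also made in immature skeletal muscle, rose from -3.46 and -3.32 to 1.46 and 1.61 (4.93 ± 0.16, limma adjusted p = 0.00358). Acta1, the skeletal actin, rose from -0.05 and 0.36 to 3.80 and 4.17. Of the troponin T genes, Tnnt2, made in embryonic muscle, rose by 4.10 and the fast Tnnt3 by 2.00, and the slow Tnnt1 (1.12) did not pass. Of the troponin I genes, the fast Tnni2 rose by 1.40, and the slow Tnni1 (1.27) did not pass. Ttn and Neb, the giant scaffold proteins, rose by 3.62 and 2.08. Ttn was well above background on neither vehicle array and rose at least 9.47-fold, with its 4 probes ranging from 0.62 to 3.62.

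Of the calcium handling genes, Pln, which encodes phospholamban and restrains the reticulum's calcium pump, went from -6.21 and -6.49 to -0.08 and 0.35, at least 25.2-fold higher (limma adjusted p = 0.00363). Sln, its skeletal relative sarcolipin, rose from -3.87 and -4.50 to -0.97 and -0.80. Casq2, the calsequestrin of slow and smooth muscle, read -3.39 and -3.28 against 1.20 and 1.20, while Casq1, that of fast fibres, was at least 2.03-fold higher. Ryr1, the release channel, and Jph2, which holds the junction together, were at least 2.98-fold and 8.19-fold higher. Under normexp Casq1 and Ryr1 had differences of -0.18 and -0.01. Of the pump genes, Atp2a2 (1.14) lay just past the threshold (limma adjusted p = 0.0521) and was called under 7 of 13 other settings, the slide block among them, and Atp2a1 (1.00) and the voltage sensor Cacna1s (0.51) did not pass. The other probe of Cacna1s had a difference of 1.46.

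At the synapse, 2 of 18 genes rose. Chrna1, the α subunit of the muscle acetylcholine receptor, read -3.13 and -3.15 with vehicle and 1.39 and 1.29 with TSA (4.48 ± 0.15, limma adjusted p = 0.00358), and its second probe gave 4.72. Chrnd, the δ subunit, rose by 4.30, and it was above background on 1 of 2 vehicle arrays. The β subunit gene Chrnb1 (0.81) and Musk (-0.38), the kinase that clusters the receptor, did not pass.

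In the dystrophin complex, 2 of 22 rose. Sgca, the sarcoglycan restricted to striated muscle, rose from -1.76 and -2.38 to 1.30 and 1.33 (3.38 ± 0.26, limma adjusted p = 0.012). Sgcd (-0.33) and Sgce (-0.65) did not pass. Dmd, the gene mutated in these mice, read -4.92 and -5.11 against -3.03 and -3.20 and was at least 2.65-fold higher (limma adjusted p = 0.0175). Under normexp its difference was -0.21, so its direction rests on the background correction. Utrn, the dystrophin relative utrophin, had 0.45 ± 0.34 and was not called.

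The promoters of contractile genes that rose were read for 3 textbook motifs of muscle genes, in the 250 bases before the RefSeq gene start (GRCm38.p6). These were the E-box (CANNTG), which myogenic factors bind, the CArG box of serum response factor and the MEF2 site, each searched on both strands. Of the 450 called higher genes with a promoter in the table, 4.44% held a CArG box and 6.67% a MEF2 site, against 1.56% and 2.32% of the 13112 tested genes with a promoter. An E-box was found in 73.8% against 64.2%. Among the genes that rose and had a promoter, a MEF2 site stood before 5 of 9 of the thick filament, 0 of 10 of the thin filament and Z disc, 1 of 7 of excitation-contraction coupling, 2 of 15 of smooth muscle and 0 of 5 myogenic factors. A CArG box stood before 2 of 9, 2 of 10, 0 of 7, 1 of 15 and 0 of 5 of the same groups. A match is a description of letters, and binding was not measured. The sequences are given 5′ to 3′ on the gene's strand and were picked because they hold a match. Capitals mark the E-boxes of Chrna1 and, in the other genes, only MEF2 sites and CArG boxes. Myh4, Myh8 and Acta1 also hold 2, 1 and 2 E-boxes, left in lower case. Chrna1 shows 3 E-boxes in its last 92 bases, Myh4 a MEF2 site and a CArG box, Myh8 a MEF2 site, and Acta1, Actc1 and Myl9, the actins and a myosin light chain of smooth muscle, a CArG box each.
Chrna1, chr2:73580339-73580588, minus strand: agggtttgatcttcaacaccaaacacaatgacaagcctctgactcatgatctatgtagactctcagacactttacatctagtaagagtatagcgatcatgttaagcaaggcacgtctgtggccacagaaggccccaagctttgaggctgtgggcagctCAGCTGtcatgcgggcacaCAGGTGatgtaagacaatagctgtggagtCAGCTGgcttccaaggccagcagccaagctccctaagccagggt
Myh4, chr11:67237562-67237811, plus strand: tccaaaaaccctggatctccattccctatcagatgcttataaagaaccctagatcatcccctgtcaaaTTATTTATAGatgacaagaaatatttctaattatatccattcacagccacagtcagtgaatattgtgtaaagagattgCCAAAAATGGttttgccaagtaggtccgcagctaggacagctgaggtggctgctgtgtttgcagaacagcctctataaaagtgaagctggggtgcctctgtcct
Myh8, chr11:67276874-67277123, plus strand: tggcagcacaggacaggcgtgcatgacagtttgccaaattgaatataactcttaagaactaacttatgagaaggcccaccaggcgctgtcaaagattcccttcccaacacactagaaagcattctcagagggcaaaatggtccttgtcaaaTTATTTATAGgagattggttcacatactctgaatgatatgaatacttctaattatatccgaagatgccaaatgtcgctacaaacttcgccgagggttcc
Acta1, chr8:123894776-123895025, minus strand: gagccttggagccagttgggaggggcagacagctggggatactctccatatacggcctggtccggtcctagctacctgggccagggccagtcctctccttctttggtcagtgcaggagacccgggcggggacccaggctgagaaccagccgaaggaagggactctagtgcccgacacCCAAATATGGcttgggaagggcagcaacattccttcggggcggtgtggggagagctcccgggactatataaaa
Actc1, chr2:114052876-114053125, minus strand: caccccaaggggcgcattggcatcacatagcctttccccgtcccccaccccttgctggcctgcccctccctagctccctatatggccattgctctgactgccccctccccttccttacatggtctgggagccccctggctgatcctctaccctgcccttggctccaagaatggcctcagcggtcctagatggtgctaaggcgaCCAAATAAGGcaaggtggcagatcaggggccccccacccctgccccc
Myl9, chr2:156775214-156775463, plus strand: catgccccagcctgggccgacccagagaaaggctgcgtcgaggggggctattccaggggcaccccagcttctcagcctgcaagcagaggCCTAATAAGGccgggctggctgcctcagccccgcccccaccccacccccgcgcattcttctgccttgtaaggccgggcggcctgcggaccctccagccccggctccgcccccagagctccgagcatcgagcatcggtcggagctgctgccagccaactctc
The MEF2 sites of Myh4 and Myh8 were the same 10 letters, TTATTTATAG, starting 182 and 99 bases before the start. The CArG boxes of Acta1 and Actc1, CCAAATATGG and CCAAATAAGG, began 73 and 47 bases before it.

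Most of the smooth muscle genes rose. Of 28 tested, 20 (71.4%) rose and none fell, the median was 3.78, or 2.26 under normexp, and all 28 were higher on both slides. Over all features, 76.1% had the same sign on both slides, in either direction. Among the 20, Pln, Casq2, Jph2 and Hrc also count as rises of excitation-contraction coupling. Of the 28, 5 were well above background on both TSA arrays and neither vehicle array, and the filter's part in the share was not tested. The summed linear signal of the list went from 91.6 and 93.6 with vehicle to 974 and 904 with TSA, and was 2453 in MuSC. Cnn1, the actin-binding protein calponin, read -1.89 and -1.94 against 4.09 and 4.31, with 5.52 in MuSC. Myh11, the smooth muscle myosin, read -1.77 and -1.89 against 3.98 and 3.83, with 5.76 in MuSC. Acta2, the smooth muscle actin that myofibroblasts also make, was already high with vehicle, at 3.33 and 3.29, and reached 7.86 and 7.90 (4.57 ± 0.14, limma adjusted p = 0.00358). Tagln (transgelin) rose from 4.04 and 4.44 to 8.18 and 7.88, and Myl9 by 3.86.

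Myocd, the coactivator that defines the smooth muscle programme, was above background on neither vehicle array and read -0.33 and -0.26 with TSA against -5.82 and -6.53, at least 18.7-fold higher (limma adjusted p = 0.0046). Lmod1, an actin nucleator, read -6.61 and -6.51 against -0.85 and -0.57, at least 14.0-fold higher. Kcnmb1, the β1 subunit of the smooth muscle BK channel, was at least 11.7-fold higher, from -6.82 and -6.29 to -0.87 and -1.07. Of the 28 genes of the smooth muscle list 8 were not called, among them Cald1 (0.44) and Synm (0.68).

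Pericytes are the mural cells of capillaries. Of 16 of their genes, 6 rose and none fell, with a median of 0.52. Rgs5, a regulator of G protein signalling, rose from 0.40 and -0.00 to 3.47 and 3.52 (3.29 ± 0.20, limma adjusted p = 0.00726), and Higd1b and Notch3 by 2.05 and 2.15. The general mural markers Pdgfrb (-0.17), Cspg4 (0.61), Mcam (0.25) and Anpep (-0.48) did not pass, although the other probe of Mcam had a difference of 1.59. The summed signal of the pericyte list was 152 and 150 with vehicle and 178 and 183 with TSA, and the part of mural or smooth muscle cells in these rises was not tested.

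**Figure D2:**
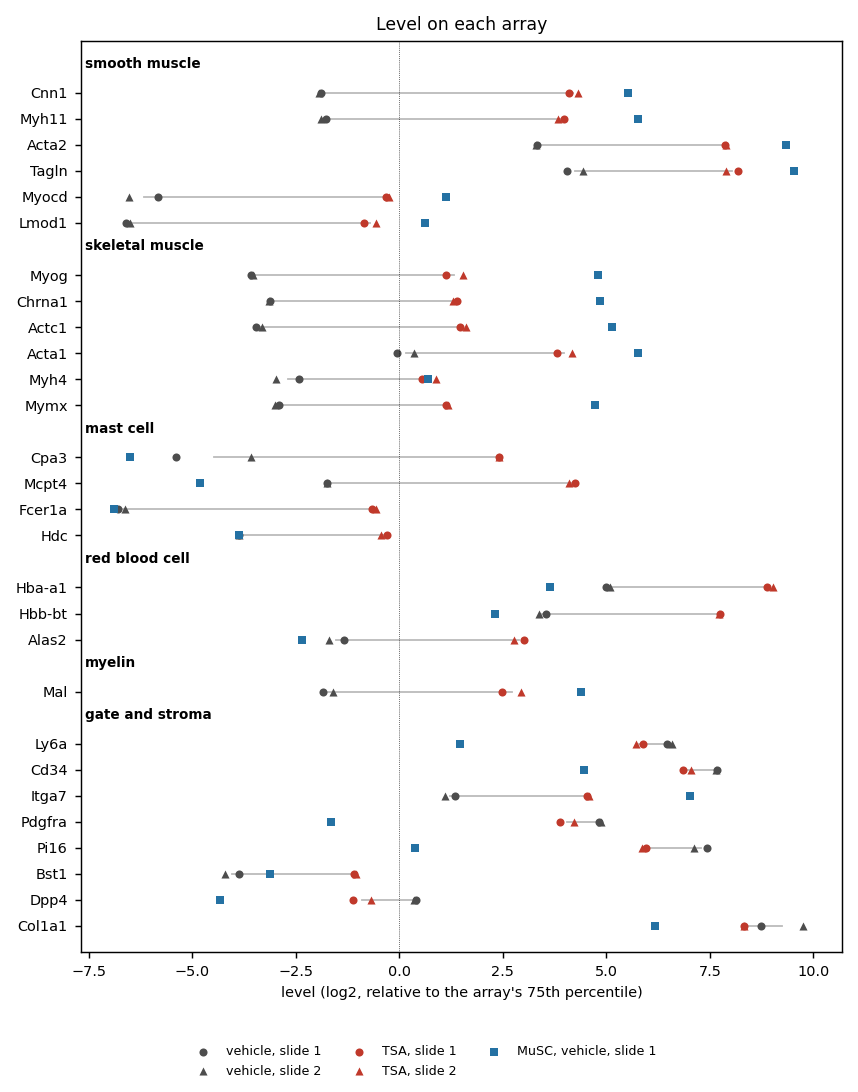
Level of genes of 6 groups (x axis, log2 relative to the array's 75th percentile) on each array, with vehicle in grey, TSA in red and MuSC in blue, circles for slide 1, triangles for slide 2 and grey lines between the group means. With TSA, muscle and myelin genes other than Myh4 lie between vehicle and MuSC, mast cell and red blood cell genes lie above both, and Ly6a, Cd34, Pdgfra, Pi16, Dpp4 and Col1a1 lie below vehicle.

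Mast cells are tissue immune cells that store proteases and histamine in granules, and their genes rose with TSA. Of 17 tested, 12 (70.6%) rose and none fell, with a median of 3.07, or 0.50 under normexp. Cpa3, a carboxypeptidase of the granules, rose from -5.39 and -3.59 to 2.40 and 2.40 (6.89 ± 0.63, limma adjusted p = 0.0189), and read -6.51 in MuSC. With vehicle, 1 of its 2 readings stood above background, which leaves the size of the difference uncertain. Mcpt4, a chymase, rose from -1.76 and -1.75 to 4.25 and 4.09, and Cma1, the other connective tissue chymase, was at least 47.7-fold higher, from -4.34 and -4.72 to 1.24 and 1.15. Fcer1a, the α chain of the IgE receptor, was at least 15.0-fold higher, from -6.80 and -6.63 to -0.67 and -0.56. Hdc, which makes histamine, rose by 3.49. Of the 17, 5 did not pass, among them Kit (0.85) and Gata2 (1.12), although with slide as a block Gata2 did (limma adjusted p = 0.0457). The summed signal of the list was 7.77 and 7.51 with vehicle, 49.9 and 46.0 with TSA and 2.57 in MuSC. Of the 17 genes, 7 were well above background on both TSA arrays and neither vehicle array, among them Fcer1a, Cma1 and the tryptase gene Tpsg1. Such a gene can enter the tested set because it is high with TSA, so the share that rose partly reflects the filter. What part of the result mast cells make up was not tested.

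Red blood cell genes moved in the same manner. Of 9 tested, 6 rose, with a median of 2.94, or 3.1 under normexp. The globin gene Hba-a1 read 4.99 and 5.08 with vehicle, 8.88 and 9.02 with TSA and 3.63 in MuSC, and Hbb-bt 3.53 and 3.36, 7.74 and 7.72, and 2.31. Alas2, which starts heme synthesis in erythroid cells, rose from -1.34 and -1.71 to 3.0 and 2.77 (4.41 ± 0.21, limma adjusted p = 0.0046). Globin copies are near-identical, so their probes may share signal, which does not touch Alas2. The summed signal was 180 and 173 with vehicle and 1814 and 1747 with TSA, and the part of red cells in the samples was not tested.

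Among lymphocyte genes, 3 of 19 rose, and the median was -0.04. Jchain, which joins the units of secreted IgA and IgM in plasma cells, was at least 12.9-fold higher, from -6.89 and -6.62 to -0.88 and -0.78 (limma adjusted p = 0.00358). Ms4a1, the B cell antigen CD20, was at least 3.46-fold higher and Gzma, a granzyme, rose by 1.69. The T cell genes Cd3e (-0.73), Cd4 (-0.62) and Cd8a (-0.85) did not pass. No gene of 24 for macrophages passed limma's adjusted threshold, although 15 were higher and 2 lower at an unadjusted p under 0.05, with a median of 0.57. Lyz2 (0.60), C1qa (0.71) and Adgre1 (0.77) had positive differences and Csf1r (-0.63) and Itgam (-0.74) negative ones, with the probes of Csf1r ranging from -0.63 to 0.21. With slide as a block 1 macrophage gene was called higher. The macrophage list's summed signal was 217 and 282 with vehicle and 184 and 194 with TSA. No gene of 11 for neutrophils passed, with 0 higher and 1 lower at an unadjusted p under 0.05.

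Schwann cells wrap peripheral axons in myelin. Of 25 of their genes, 13 (52.0%) rose and none fell, with a median of 1.89. Mal, a myelin lipid raft protein, rose from -1.86 and -1.60 to 2.49 and 2.94 (4.44 ± 0.23, limma adjusted p = 0.00546). Sox10, the lineage factor, rose by 1.72. Ngfr (0.36) and S100b (1.04) were among the 12 that did not pass. S100b lay near the threshold (limma adjusted p = 0.0545) and was called under 6 of 13 other settings. The summed signal was 47.7 and 53.6 with vehicle, 101 and 106 with TSA and 275 in MuSC, so these genes were highest in the Sca1-negative sort, and their source was not tested.

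Endothelial genes had mostly positive differences and few calls. Of 26 tested, 25 had a positive difference and 5 rose, with a median of 0.91. Vwf, the clotting factor of endothelial granules, rose from 1.96 and 1.86 to 4.90 and 4.84 (2.96 ± 0.15, limma adjusted p = 0.00526), and Plvap, the diaphragm protein of fenestrae, by 1.89. Pecam1 (0.73) and Cdh5 (0.48) did not pass, and Kdr (-0.86) was the negative one, although its other probe had a difference of 0.32. With slide as a block 8 genes of the list rose. The summed signal was 283 and 315 with vehicle and 503 and 541 with TSA.

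**Figure D3:**
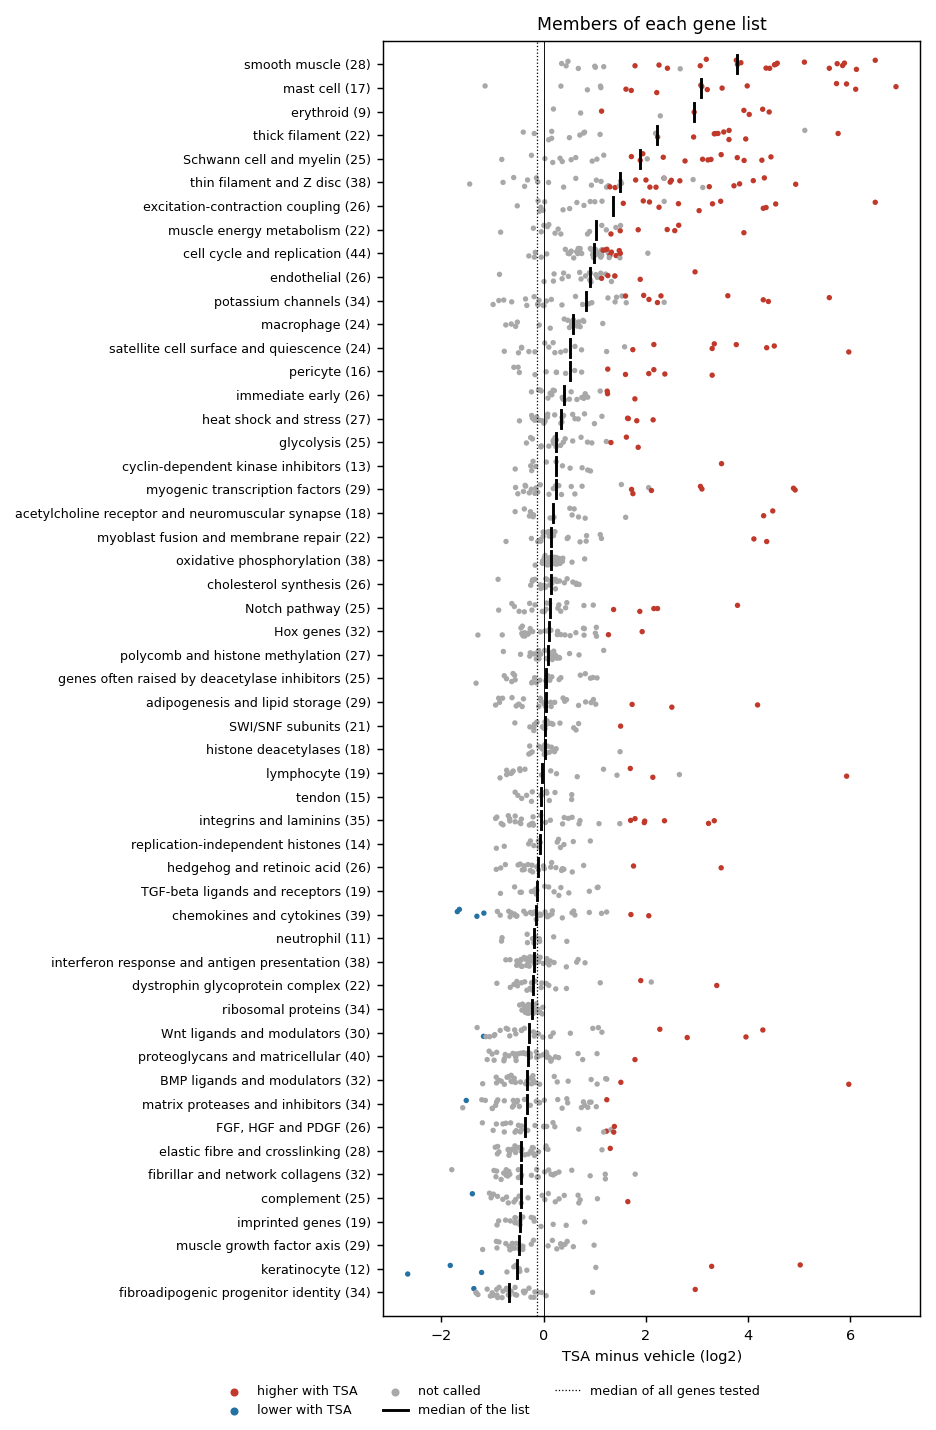
Difference between TSA and vehicle (x axis, log2) of every tested member of 53 gene lists, ordered by the median of the list (black bar), with called members in red (higher) and blue (lower) and the number tested in parentheses. Smooth muscle (3.78), mast cell (3.07) and erythroid (2.94) lists have the highest medians and fibroadipogenic progenitor identity (-0.68) the lowest.

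Genes of the matrix, the main product of these cells, gave few calls. Lists of this size give few or none at the shares over all features, 2.71% higher and 0.268% lower. An unadjusted p under 0.05 was reached by 6048 of all 26091 features, in either direction. Of 32 tested collagen chains none passed limma's adjusted threshold, with 5 higher and 12 lower at an unadjusted p under 0.05, and the median was -0.44. With slide as a block 1 was called higher and 1 lower. Col1a1 read 8.73 and 9.75 with vehicle and 8.32 and 8.33 with TSA (-0.92 ± 0.38, limma adjusted p = 0.242). Its vehicle arrays differed from each other by more than the groups did. Col3a1 (-0.78), Col6a1 (-0.72) and Col15a1 (-0.97) were alike in size. Col6a6 had the most negative value, -1.80 (limma adjusted p = 0.0638, or 0.0177 with the block). Of 40 proteoglycans and matricellular genes 1 rose, Spp1, which encodes osteopontin, from -0.46 and -0.37 to 1.23 and 1.51, while Dcn (-1.11) and Sparc (-1.07) did not pass. Of 28 genes of elastic fibres and crosslinking, Tgm2, a transglutaminase, was the 1 called, at 1.30.

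Of the receptors for matrix, some rose. Of 35 integrins and laminins, 7 rose and none fell, with a median of -0.06. Besides Itga7, Itgb4, the laminin receptor subunit of hemidesmosomes and myelinating cells, rose from -0.66 and -0.88 to 2.34 and 2.56 (3.22 ± 0.18, limma adjusted p = 0.00612). Itga4 rose by 2.36, Itga8, an integrin of smooth muscle, by 1.79 and Lama5, a laminin of vessel and epithelial basement membranes, by 1.98. Lama2 (-0.92), the laminin of the muscle fibre, and Itga11 (-0.83), a collagen receptor of fibroblasts, did not pass. Among 34 matrix proteases and inhibitors, Mmp27, a stromal metalloproteinase, fell from -2.07 and -2.34 to -3.62 and -3.82. Adamts5, an aggrecanase, had -1.58 (limma adjusted p = 0.0942, or 0.022 with slide as a block, where 3 members of the list fell).

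No gene passed in the muscle growth factor list, which holds secreted factors by which interstitial cells are known to act on muscle. Its 29 genes also include receptors, such as Igf1r and Acvr2a, and the noncoding RNA H19. None was called by limma, against 2.71% higher and 0.268% lower over all features. At an unadjusted p under 0.05, 1 was higher and 15 lower, and the median was -0.48. Over all features 6048 of 26091 passed that unadjusted cut, in either direction. Fst, which encodes the myostatin antagonist follistatin, read 4.62 and 3.83 with vehicle and 3.26 and 2.79 with TSA (-1.19 ± 0.35, limma adjusted p = 0.162). With slide as a block its adjusted p was 0.0484. Igf1 read 4.59 and 4.50 against 3.82 and 3.99 (-0.64), and Il6, a cytokine, 0.08 and -0.03 against 0.11 and 0.28 (0.17).

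Signalling genes gave some of the largest single rises. In the Wnt list, 4 of 30 rose and 1 fell, with a median of -0.29. Wnt10a was above background on neither vehicle array and rose from -4.89 and -5.17 to -0.73 and -0.75, at least 13.7-fold higher (limma adjusted p = 0.00424). Wnt6, its neighbour on chromosome 1, rose from -3.07 and -3.05 to -0.87 and -0.70 (2.27 ± 0.16, limma adjusted p = 0.00981). Sfrp5, a secreted Wnt antagonist, rose from -0.74 and -0.38 to 3.38 and 3.41, and Nkd1, an inhibitor induced by the pathway, from -0.82 and -0.83 to 1.93 and 2.03. Wnt11, a ligand of the non-canonical branch, fell from 1.02 and 1.04 to -0.14 and -0.16 (-1.18 ± 0.14, limma adjusted p = 0.037). Axin2 (0.96), the usual readout of canonical Wnt, did not pass, and its other probe had a difference of -1.58.

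In the Notch list, 5 of 25 rose and none fell, with a median of 0.11. The ligand genes Dll1, from -3.18 and -2.77 to -0.94 and -0.55, and Jag1, from 0.39 and 0.31 to 1.58 and 1.86, rose, as did the receptor Notch3, from 2.51 and 2.32 to 4.68 and 4.46. Of the targets, Hey2 was at least 3.14-fold higher, from -6.78 and -6.55 to -3.13 and -2.61, and Nrarp, a feedback inhibitor, rose by 1.88. Hes1 (0.28), Hey1 (0.33) and Heyl (0.43) did not pass, nor did the receptor Notch2 (-0.23).

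Dhh, the hedgehog ligand of Schwann cells, rose from -1.66 and -2.03 to 1.53 and 1.72 (3.47 ± 0.20, limma adjusted p = 0.00681), and the pathway's target Gli1 (0.39) did not pass. Besides Chrdl2, Id1, a target of bone morphogenetic proteins, rose by 1.51, the second call among 32 genes of that pathway. None of 19 TGF-β ligands and receptors was called by limma, with 4 higher and 2 lower at an unadjusted p under 0.05. Of 26 genes of FGF, HGF and PDGF signalling, Fgf1 (1.23), Fgfr3 (1.38) and Pdgfa (1.37) rose. The other probes of Fgf1 and Fgfr3 had differences of 0.18 and 0.38.

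Chemokines included some of the few falls. Of 39 chemokine and cytokine genes tested, 2 (4 with slide as a block) rose and 4 (10.3%) fell, against 0.268% of all features. Cxcl13, which draws B cells, fell from 0.48 and 0.54 to -1.18 and -1.18 (-1.69 ± 0.15, limma adjusted p = 0.0165). Ackr2, a receptor that scavenges inflammatory chemokines, fell from 1.89 and 1.56 to 0.04 and 0.12, Cxcl9, a ligand induced by interferon gamma, from 1.71 and 1.48 to 0.35 and 0.21, and Ccl11, which draws eosinophils, from 4.52 and 4.61 to 3.32 and 3.47. Cxcl5, which draws neutrophils, rose from -0.11 and -0.42 to 1.31 and 1.57. Il1b, the inflammatory cytokine, was at least 2.14-fold higher (limma adjusted p = 0.0375), with -0.22 under normexp. None of 38 interferon response genes was called by limma, with 3 higher and 7 lower at an unadjusted p under 0.05. Over all features 6048 of 26091 passed that unadjusted cut, in either direction. Of 25 complement genes, Cd55, an inhibitor of the convertases, fell from 3.0 and 2.75 to 1.44 and 1.51, and Cd59a, which blocks the membrane attack complex, rose from -0.53 and -0.69 to 1.10 and 0.97.

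**Figure D4:**
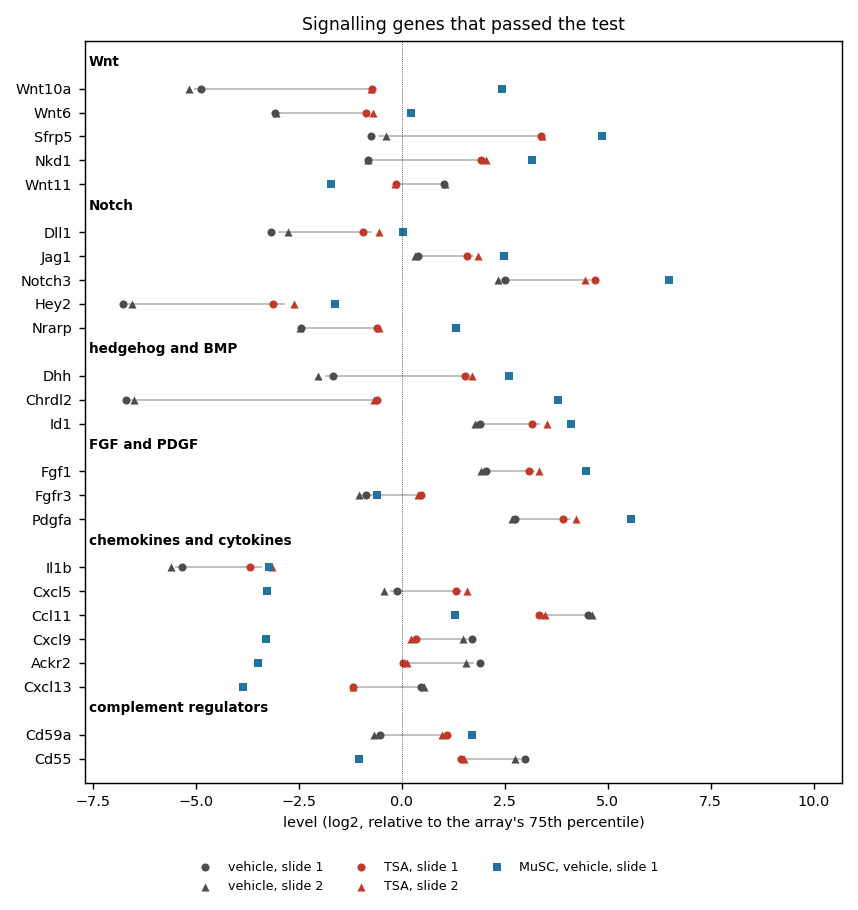
Level of signalling genes that passed the test (x axis, log2 relative to the array's 75th percentile) on each array, with vehicle in grey, TSA in red and MuSC in blue, circles for slide 1, triangles for slide 2 and grey lines between the group means. The Wnt and Notch members drawn move toward the MuSC level, while Cxcl5 moves away from it, from -0.11 and -0.42 to 1.31 and 1.57 with MuSC at -3.27.

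Channels of excitable cells were among the rises. Of 34 potassium channel genes, 9 (26.5%) rose and none fell, with a median of 0.82, or -0.03 under normexp. Kcna1, a Kv1 channel of myelinated axons, rose from -2.57 and -3.13 to 1.51 and 1.58 (4.39 ± 0.24, limma adjusted p = 0.00588), Kcnj12, an inward rectifier of muscle, from -4.08 and -4.11 to 0.01 and 0.38 and Kcnk3, a background channel, from -3.66 and -4.22 to -0.22 and -0.45. Kcnma1 (0.94), the pore that Kcnmb1 attends, did not pass.

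Metabolic genes gave calls mainly in the muscle list. Of 22 genes of muscle energy metabolism, 7 rose. Slc2a4, the insulin-regulated glucose transporter, rose from -0.91 and -1.14 to 2.83 and 2.95 (3.92 ± 0.17, limma adjusted p = 0.00438), Ckm, the muscle creatine kinase, by 2.56 and Mb, the oxygen store myoglobin, by 2.42. Of 38 respiratory chain and ATP synthase genes none was called by limma, with 2 higher and 0 lower at an unadjusted p under 0.05, and the median was 0.14. Plin4, which coats lipid droplets, rose from -2.16 and -2.31 to 1.89 and 2.00 among 29 genes of fat storage, of which 3 rose, while Pparg (0.45), Adipoq (1.02) and Cebpa (-0.49) did not pass.

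Cell cycle genes had small positive differences, a part of which passed. Of 44 tested, 40 were higher on both slides and 8 (18.2%) rose, or 13 with slide as a block, 38 at an unadjusted p under 0.05, with a median of 0.99. Over all features, 76.1% had the same sign on both slides and 6048 of 26091 passed the unadjusted cut, in either direction. Mki67, the proliferation marker, rose from 1.39 and 1.15 to 2.48 and 2.47 (1.21 ± 0.16, limma adjusted p = 0.0484), and Ccnb1, Aurka and Birc5, which act in mitosis, by 1.48, 1.32 and 1.16. Among 13 inhibitors of the cycle, Cdkn2a, which encodes p16 and p19Arf, rose from -3.54 and -4.38 to -0.44 and -0.52 (3.48 ± 0.32, limma adjusted p = 0.0193). It was above background on 1 of the 2 vehicle arrays and read 3.15 in MuSC. Cdkn1a, the p21 gene, had 0.91 and was not called, with its 3 probes ranging from 0.31 to 2.10.

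The genes of the chromatin enzymes gave few calls. Over all features 2.71% were called higher and 0.268% lower, and at those shares lists of this size give few calls or none. An unadjusted p under 0.05 was reached by 6048 of all 26091 features, in either direction. Of 18 deacetylases none was called by limma (1 higher with slide as a block), with 1 higher and 0 lower at an unadjusted p under 0.05, and the median was 0.02. Hdac2 read -2.36 and -2.72 against -2.47 and -2.58. Of 25 genes often raised by deacetylase inhibitors in cultured cells none was called, with 4 higher and 4 lower at an unadjusted p under 0.05, and the median was 0.04. H1f0, the linker histone that such inhibitors commonly induce, had -0.77, Cdkn1a 0.91 and Gsn -1.32. The 3 probes of Cdkn1a ranged from 0.31 to 2.10. Gsn was called with slide as a block (limma adjusted p = 0.0334). Of 21 SWI/SNF subunits 1 rose. That was Smarcd3, the BAF60C subunit of muscle and heart, from 0.27 and -0.03 to 1.65 and 1.6 (1.5 ± 0.18, limma adjusted p = 0.0336), while Smarcd1 (-0.19) and Smarca4 (0.63) did not pass. Of 27 polycomb and methylation genes none was called by limma (1 higher with slide as a block), with 3 higher and 2 lower at an unadjusted p under 0.05. Stress and early genes gave some calls: 4 of 27 heat shock genes rose, among them the small muscle heat shock proteins Hspb6 (1.66) and Hspb2 (1.64), and 3 of 26 immediate early genes, among them Nr4a1 (1.24), while Fos (0.65) did not pass.

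Of Hox genes, which keep a cell's position along the body, 2 of 32 rose, Hoxb9 by 1.93 and Hoxb8 by 1.27, and the latter was -0.05 under normexp. The 19 imprinted genes gave no call by limma, with 2 higher and 6 lower at an unadjusted p under 0.05 and a median of -0.46.

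Other large rises belonged to no list. Olfr78 and Olfr558, olfactory receptor genes that vascular cells are known to express, read -4.41 and -6.52 against 1.04 and 0.92 and -2.54 and -2.72 against 2.73 and 2.95, the former at least 42.1-fold higher (limma adjusted p = 0.0316). Iqsec3, an exchange factor for ARF proteins, was at least 31.0-fold higher, from -5.49 and -6.52 to 0.21 and 0.67. Nrip2, a cofactor of nuclear receptors, rose from -3.74 and -3.93 to 2.09 and 1.86, Trpc6, a receptor-operated cation channel, was at least 11-fold higher, from -6.83 and -6.33 to -1.14 and -0.98, and Smco3, a membrane protein, was at least 11.1-fold higher, from -6.88 and -6.55 to -1.0 and -1.09. Among genes with a symbol, the 20 with the largest fitted rises are all named in the text, but 13 of them were well above background on neither vehicle array, so their differences have no order. Features listed under accessions, Gm or LOC names, some of them with rises as large, were not part of that choice. In 14 of the 20 the MuSC array read higher than both TSA arrays, the exceptions being Cpa3, Fcer1a, Mcpt4, Mcpt-ps1, Cma1 and Jchain. Over all 708 features called higher, it did so in 523.

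The falls were few, smaller and scattered over functions. Krtdap, a secreted product of keratinocytes, fell from -1.33 and -1.44 to -3.94 and -4.14 (-2.66 ± 0.16, limma adjusted p = 0.00746). Its neighbours Dmkn, from 0.56 and 0.28 to -1.29 and -1.52, and Sbsn, by 1.22 on the log2 scale, fell too, the 3 called lower of 12 keratinocyte genes. The keratins Krt5 (-0.58) and Krt14 (-0.72) did not pass, while Perp, a desmosome protein, rose by 5.02 and Cdh1, the epithelial cadherin, was at least 2.66-fold higher. The other largest falls were Ttll2, a tubulin ligase relative, at least 4.11-fold lower, from -3.75 and -3.29 to -5.73 and -6.27, and Unc93a, from -1.75 and -1.80 to -4.20 and -3.78. Syt13, a synaptotagmin, fell from -0.17 and -0.42 to -2.29 and -2.14.

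Most of the other largest falls were of genes well above background in both groups. Scara5, a ferritin receptor of fibroblasts, fell from 3.59 and 3.57 to 2.00 and 2.03 (-1.57 ± 0.14, limma adjusted p = 0.0192), Myoc, myocilin, from 5.75 and 5.43 to 4.18 and 3.93 and Htra3, a serine protease, from 3.89 and 3.67 to 2.45 and 2.26. Smpd3, a neutral sphingomyelinase, fell from -0.18 and -0.55 to -2.25 and -1.91, Slc6a2, the noradrenaline transporter, from -0.62 and -0.86 to -2.24 and -2.16 and Prdm8, a histone methyltransferase relative, from 0.82 and 0.61 to -0.84 and -0.69. Pcdh20, a protocadherin, fell from -0.43 and -0.77 to -2.30 and -2.43, Igsf1, an immunoglobulin superfamily protein, from -1.38 and -1.48 to -3.29 and -3.11 and Duoxa1, a maturation factor of dual oxidases, from 0.92 and 0.95 to -0.46 and -0.49. The other probe of Igsf1 had a difference of -0.39. Ces1d, a carboxylesterase, fell from -1.24 and -1.62 to -2.89 and -2.82. Ppp1r3g, a glycogen-targeting subunit, read -3.88 and -3.90 against -5.52 and -5.45, at least 3.01-fold lower. Xntrpc fell from 4.67 and 4.37 to 3.06 and 3.12 on its brightest probe, while its other probe had a difference of 0.47. The groups did not overlap in any of these genes, but the genes were picked as calls, so that separation adds nothing to the calls.

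Called genes also lay side by side. Along mm9, 16 runs of at least 3 called neighbours, each within 100000 bases of the next called probe, rose and 1 fell. They were picked out after their values were seen. Of the 16, 1 held Malat1, NEAT2 and an intergenic probe, all within 5795713 to 5795811 on chromosome 19. So a run need not hold separate genes, and the count of runs was not set against a background. On chromosome 14 from 56561491 to 56702674 all 8 features tested rose, the chymase genes from Cma1 past the pseudogene Mcpt-ps1 (-3.85 and -3.99 against 2.15 and 1.72) to Mcpt8, by 2.21 to 5.92, and Mcpt8 had -0.24 under normexp. On chromosome 11 from 67010960 to 67121984, 4 of 5 myosin heavy chain features rose, by 3.34 to 3.95. On chromosome 1 from 136095833 to 136188933 all 3 rose, Adora1, an adenosine receptor, Mybph, a myosin-binding protein, and Myog. On chromosome 12 from 114497090 to 114659689, 7 of 11 features rose, among them Igh-VJ558, a variable segment of the immunoglobulin heavy chain, and those segments are too alike for their probes to be told apart. The 4 probes of Igh-VJ558 ranged from -0.43 to 6.87. The falling run was Sbsn, Dmkn and Krtdap on chromosome 7, from 31540994 to 31574762.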

How the data were processed

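RNA was measured on 5 one-colour Agilent arrays. Per the file headers, the deposited scanner files hold spot intensities after the authors' Feature Extraction, background-subtracted and unscaled. The authors' deposited value table, in log2, ranked as the scanner values did (Spearman correlation 1) with a median of 4.67 in each column, and served as an alternative. Its exact normalization is not given in the sources used here.

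From the processed signal in log2, the 75th percentile over non-control spots was subtracted array by array. Outlier spots were dropped, spots of a probe averaged and the brightest probe taken for a gene. RefSeq tables named 26413 of 55681 probes by accession, and another probe of the gene named 574 more. A feature was tested if 1 group or more had it well above background on all its arrays. The tests were two-sided, by lmFit and eBayes of limma 3.58.1 in R 4.3.3, on all 5 arrays in 3 groups (2 residual degrees of freedom, prior 2.30), with Benjamini-Hochberg adjustment. A fold given as "at least" sets the brighter group's mean against the lowest value well above background or, if higher, the value of the dim probe. Positions are those of the array design, in mm9, and promoters are RefSeq's in GRCm38.p6, whose table left some genes without one.

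The 4 arrays, the 53 gene lists and the genes named were chosen with earlier results of these data known, by this rule: the 20 largest calls of the same sign on both slides in each direction among genes with a symbol (no accession, Rik, Gm or LOC names), members of the lists with the largest differences, and 14 genes set by name; members that did not pass were named besides, after their values were seen, and 21 of them whose sign changed between settings were left out, so the named genes look steadier than the lists as a whole, for which all members were counted. A few genes are not reported here. Slide 2 files hold no mean signal, so normexp (offset 50) used median signals. Methods were tested on simulated data. Replicate arrays correlated at 0.987 (vehicle) and 0.989 (TSA) and were counted as separate samples. Same-numbered arrays share a slide, and with 2 pairs it could not be settled whether the numbers pair samples.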

Additional observations from a re-analysis of the deposited data

How the results depend on the processing

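The comparison gave 708 higher and 70 lower. The higher and lower counts were 1252 and 5868 with normexp, of which 446 and 70 were shared with the processed signal, and 1297 and 175 with median scaling. They were 280 and 3 with no filter on dim probes. Lower calls were 110 where all 4 Sca1+ arrays had to be well above background. With 1 array left out they ranged from 0 to 319 higher and from 0 to 2 lower, and limma's calls were 0 without either TSA array (4913 and 3099 features at an unadjusted p under 0.05). Same-numbered arrays share a slide, and the replicate block gave 932 higher and 166 lower, sharing 706 and 69 with the fit without it; 2 pairs cannot settle the pairing. Features above background with 1 treatment only went from 857 and 22 to 146 and 0 under the looser call. Quantile normalization, the deposited table, the median over probes and the 4 Sca1+ arrays alone kept both counts within 1.5 times. The cause of these changes was not tested.

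Of 189 called members of the gene lists, 19 changed sign under normexp and none under the 12 other settings; of 1080 not called, 364 changed sign under at least 1 setting. Most named members that were not called were picked with signs that held, so these counts, not the named genes, give the stability. Among named genes the difference under normexp was -0.33 for Adipoq, -0.46 for Axin2, -0.18 for Casq1, -0.21 for Dmd, -0.36 for Hdac2, -0.050 for Hoxb8, -0.22 for Il1b, -0.24 for Mcpt8, -0.42 for Myf6, -0.012 for Ryr1 and 0.033 for Pdgfrb. Axin2 was -0.31 with the median over probes, Mymk ranged from -0.24 (without vehicle replicate 1) to 0.44 with 1 array left out, and Hdac2 from -0.17 (without vehicle replicate 2) to 0.19, with -0.045 without TSA replicate 1. The median of 15 of the 53 lists changed sign under at least 1 setting. Signal near background limits the dim probes: 4.43% of the dimmest 20% of features rose against 0.690% of the brightest 20%. The filter selected which dim features were tested, and its part in that contrast was not tested.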
